A study of Mus musculus with 3 samples.

Results

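Immediate early genes are followed here across the cells of a healing mouse fracture callus. They were 10 of the 32285 genes counted: *Fos*, *Fosb*, *Jun*, *Junb*, *Egr1*, *Nr4a1*, *Nr4a2*, *Nr4a3*, *Atf3*, and *Ier2*. The genes were matched by symbol, and all 10 were present in each library. They were chosen from measured values, because *Nr4a1* and *Nr4a3* led a chondrocyte cluster made from these same cells, so their levels are given as a description and carry no test. The cells came from the femoral callus of fractured C57BL/6 mice with no treatment, at day 7, day 10, or day 14 after fracture. All 3 groups shared the same preparation, in which muscle and marrow were removed, the callus was crushed and digested with type I collagenase at 37°C, and live cells without CD45, CD31, and TER119 were sorted. Each day gave 1 droplet library, and the labels state neither the age nor the number of mice, so no difference between days could be set against the spread between animals and no p-value was computed. A library without a fracture was not analysed here.

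Immediate early genes are transcribed within minutes of a stimulus, without new protein synthesis. *Fos*, *Fosb*, *Jun*, and *Junb* encode subunits of the AP-1 transcription factor, and *Atf3* encodes a stress-induced factor that pairs with Jun proteins. *Egr1* encodes a zinc finger factor, the *Nr4a* genes encode orphan nuclear receptors, and *Ier2* encodes a nuclear protein induced by growth factors. In skeletal cells these genes respond to mechanical load and growth factors, and the *Nr4a* genes to parathyroid hormone through cAMP. The same genes are known to be switched on when tissue is dissociated with warm enzyme.

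The promoters of the *Nr4a* genes are shown first because these receptors had the largest differences between day 10 and day 14 in the *Ucma* and *Cnmd* gates. The sequences are from RefSeq on GRCm38.p6, and 8 of the 10 genes were used. *Egr1* and *Ier2* had no promoter in the set used and were not searched. The window was the 250 bases before the RefSeq transcription start. Printed are its bases 5′ to 3′ on the coding strand, from the far end up to the first annotated exon. For *Nr4a3* the bases nearest the start are thus not printed. Its first printed half-site begins at −231 from the start, and the one not printed begins at −147. Capitals mark the half-site of the cAMP response element, TGACG or its reverse complement CGTCA, searched on both strands. *Nr4a1* (chr15:101266596-101266845, plus strand) and *Nr4a2* (chr2:57124004-57124253, minus strand) are given over 250 bases and *Nr4a3* (chr4:48045055-48045152, plus strand) over 98 bases. *Fos* (chr12:85473640-85473889, plus strand) and *Junb* (chr8:84978749-84978998, minus strand) are shown for contrast. The *Nr4a1* window lies inside the annotated span of its gene (chr15:101254269-101274795) and outside its exons, and the other 4 windows printed lie upstream of their genes.
Nr4a1: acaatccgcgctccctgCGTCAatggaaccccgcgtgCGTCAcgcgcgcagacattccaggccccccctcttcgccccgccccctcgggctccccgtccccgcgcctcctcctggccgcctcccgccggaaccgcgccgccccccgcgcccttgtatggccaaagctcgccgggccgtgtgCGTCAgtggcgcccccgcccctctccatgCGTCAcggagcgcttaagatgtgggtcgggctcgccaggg
Nr4a2: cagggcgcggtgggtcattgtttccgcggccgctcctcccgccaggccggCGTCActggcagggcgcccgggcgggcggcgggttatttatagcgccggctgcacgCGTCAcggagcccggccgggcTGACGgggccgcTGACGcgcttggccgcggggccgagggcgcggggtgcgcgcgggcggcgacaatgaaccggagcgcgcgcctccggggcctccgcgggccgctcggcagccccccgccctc
Nr4a3: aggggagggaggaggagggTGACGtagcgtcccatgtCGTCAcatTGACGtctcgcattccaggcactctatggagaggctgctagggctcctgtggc
Fos: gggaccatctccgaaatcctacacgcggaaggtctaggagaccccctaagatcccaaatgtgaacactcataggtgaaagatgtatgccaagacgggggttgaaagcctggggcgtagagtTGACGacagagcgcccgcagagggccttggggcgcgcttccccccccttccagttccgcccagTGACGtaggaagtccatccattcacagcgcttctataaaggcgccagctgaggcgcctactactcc
Junb: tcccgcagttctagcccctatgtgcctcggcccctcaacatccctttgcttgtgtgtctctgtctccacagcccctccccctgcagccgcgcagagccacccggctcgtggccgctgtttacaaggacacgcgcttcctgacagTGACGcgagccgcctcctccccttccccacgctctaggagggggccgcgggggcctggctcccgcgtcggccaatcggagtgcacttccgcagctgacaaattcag
In the 250 bases before the start, *Nr4a1*, *Nr4a2*, and *Nr4a3* each held 4 half-sites, 3 of which fall in the stretch printed for *Nr4a3*. Of 32851 promoters of the same length, 45 (0.137%) held 4 or more. The cut of 4 is the count that the *Nr4a* genes themselves held, so the share is no independent measure. The 32851 promoters were not matched for GC content, which was 74.4%, 80%, and 63.6% for *Nr4a1*, *Nr4a2*, and *Nr4a3*. The rest of the 8 ranged from 58.4% (*Fos*) to 68.8% (*Fosb*). *Fos* held 2 half-sites and *Fosb*, *Junb*, and *Atf3* 1 each, while *Jun* held none. At least 1 half-site was in 7 of the 8 promoters and in 17.8% of all promoters. The full element TGACGTCA (1.55% of all promoters), the AP-1 site TGANTCA (6.75%), the NGFI-B response element AAAGGTCA (1.34%), and the CArG box (1.47%) were in none of the 8 windows. A match of letters does not show that a factor is bound there.

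Cells were grouped by a single marker gene, and a cell counted as high at 10 or more UMIs of the marker per 10000 of its UMIs (100 for *Col10a1*) and at least 5 UMIs, with no UMI of *Ptprc*, the gene of CD45. A UMI stands for 1 captured mRNA molecule, and because each molecule is counted at its 3′ end, levels need no correction for gene length. *Ucma* and *Cnmd* mark cartilage, *Col10a1* hypertrophic cartilage, *Aspn* fibroblastic progenitors, *Ifitm5* osteoblasts, and *Rgs5* mural cells. The gates held 1478 *Ucma*-high, 3183 *Cnmd*-high, 476 *Col10a1*-high, 2153 *Aspn*-high, 77 *Ifitm5*-high, and 75 *Rgs5*-high cells at day 10. At day 14 the same gates held 874, 2178, 1116, 4120, 262, and 214 cells. Day 7 held 33 *Ucma*-high, 63 *Cnmd*-high, and 25 *Aspn*-high cells, and its other gates were under 20 cells and were not used. The gates overlap: 98.2% of *Ucma*-high cells were also *Cnmd*-high at day 10 and 93.8% at day 14, 536 cells were high for both *Aspn* and *Cnmd* at day 10 and 377 at day 14, and 36.9% of the *Rgs5*-high cells at day 14 were *Aspn*-high.

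The day 7 library stood apart. Only 6.37% of its 7017 cells within the limits lacked *Ptprc*, against 99.9% of 6593 at day 10 and 98.2% of 9853 at day 14, although CD45 had been sorted against. Its cells were also shallower, with a median of 5056 UMIs against 17370 and 15802. The libraries shared 29 to 42 barcodes pairwise. The 6 listed chondrocyte genes summed to 69000, 60470, and 51994 CPM (UMIs per 1000000 UMIs of the class) in *Cnmd*-high cells over the 3 days and to 7592, 10222, and 5496 CPM in *Aspn*-high cells. The mix within the *Cnmd* gate was not the same each day. Its hypertrophic list was at 29021, 11405, and 17228 CPM over the 3 days, and its osteoblast list at 36177, 15437, and 15839 CPM. The part of this mix in the differences between days was not tested. The 6 osteoblast genes were highest in *Ifitm5*-high cells (119890 and 109922 CPM at day 10 and day 14) and the 6 pericyte genes in *Rgs5*-high cells (5869.9 and 5052 CPM), while genes of each list were detected in the other gates too. The 8 neutrophil genes summed to 2045 to 2125 CPM in the day 7 gates, to 0.72 to 44.8 CPM at day 10, and to 29.4 to 224 CPM at day 14, against 312214 CPM in the *Ptprc*-detected cells of day 7. Macrophage genes were at most 63.7 CPM in any gate, lymphocyte genes at most 6.12 CPM, osteoclast genes 126 to 605 CPM, and endothelial genes at most 55.6 CPM, in *Rgs5*-high cells at day 10. Erythroid genes were at 309 to 352 CPM at day 7 and under 6 CPM later. The hypertrophic list was highest in *Col10a1*-high cells (88297 and 85655 CPM at day 10 and day 14) and the fibroblastic list in *Aspn*-high cells (19167 and 18625 CPM). The hypertrophic list holds *Col10a1* itself, so its level in that gate follows in part from the cut. It also shares *Ibsp* with the osteoblast list, and *Ifitm5*-high cells had 71139 and 76920 CPM of it. The part of RNA from other cell types in the levels below was not tested.

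Taken as 1 sum, the 10 genes ranged from 2808 to 7800.3 CPM over the gates and days, with *Ucma*-high cells of day 10 at the top and *Ifitm5*-high cells of day 14 at the bottom. In *Cnmd*-high cells the sum was 4606 CPM at day 7, 7535 at day 10, and 4417 at day 14. In *Aspn*-high cells it was 4481, 4702, and 3010 CPM. The cartilage cells of day 10 were thus the high group, and those of day 7 and day 14 lay lower. *Col10a1*-high cells had 7512 and 5792 CPM at day 10 and day 14, *Rgs5*-high cells 5456 and 3782 CPM, and *Ifitm5*-high cells 4219 and 2808 CPM. Barcodes with fewer than 500 genes, which were left out, held these genes at 2168 CPM (day 10) and 2285 CPM (day 14), below each of these gates. Their median percent of mitochondrial UMIs was 61.1 and 44.8, against 1.45 to 3.12 in the gates of those days. Mitochondrial UMIs count in the total, so the 2 sets of levels are not like for like.

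**Figure D1:**
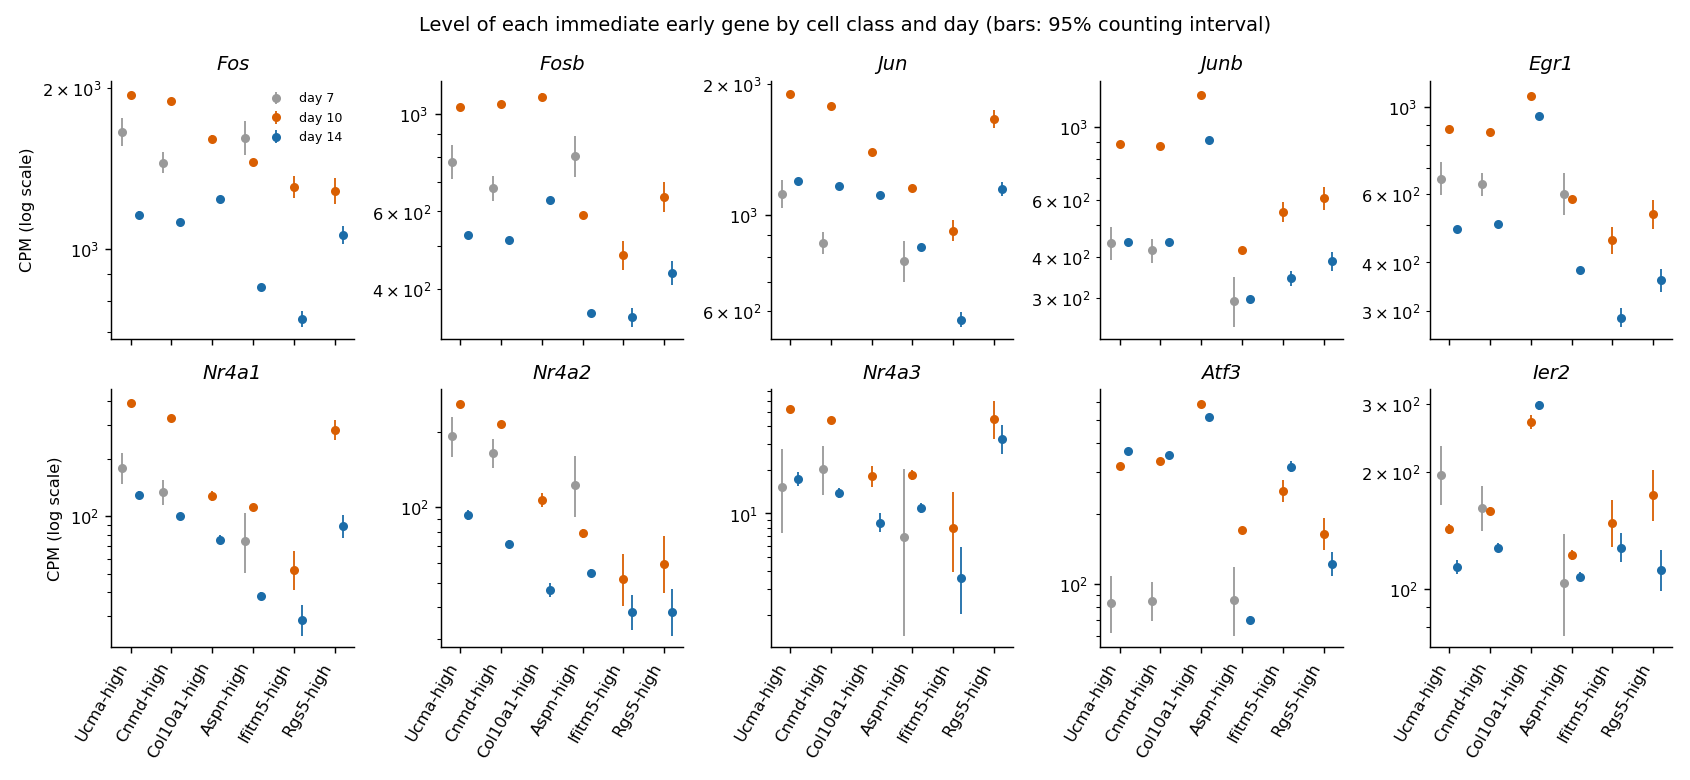
Level of each of the 10 genes in CPM, UMIs per 1000000, on a log axis by gate and day, with 95% counting intervals. *Nr4a1* in *Ucma*-high cells stands at 392 at day 10 and 129 at day 14, above every other gate of the same day, and *Atf3* is highest in *Col10a1*-high cells at 588 and 519.

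Among the AP-1 genes, *Fos* and *Jun* were the most abundant. *Fos* stood at 1449.5, 1888, and 1124 CPM in *Cnmd*-high cells at day 7, day 10, and day 14, at 1613, 1456, and 852 CPM in *Aspn*-high cells, and at 1603 and 1243 CPM in *Col10a1*-high cells at day 10 and day 14. It was the most even of the 10 genes, with 1.51-fold between the highest and the lowest gate at day 10 and 1.68-fold at day 14. *Jun* stood at 861, 1774, and 1162 CPM in *Cnmd*-high cells, at 782, 1151, and 842 CPM in *Aspn*-high cells, and at 1391 and 1110.0 CPM in *Col10a1*-high cells. At both days *Jun* was highest in *Ucma*-high cells and lowest in *Ifitm5*-high cells, 2.06-fold and 2.08-fold apart. In *Rgs5*-high cells *Jun* was at 1659 and 1144 CPM, next to the *Ucma* and *Cnmd* gates.

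*Fosb* and *Junb* were highest in the hypertrophic gate. *Fosb* was at 678, 1054, and 516 CPM in *Cnmd*-high cells over the 3 days, at 801, 590.2, and 353 CPM in *Aspn*-high cells, and at 1095 and 636 CPM in *Col10a1*-high cells. *Junb* was at 419, 875, and 445 CPM in *Cnmd*-high cells, at 293, 421, and 299 CPM in *Aspn*-high cells, and at 1247 and 910 CPM in *Col10a1*-high cells. *Junb* in *Col10a1*-high cells was thus 2.96-fold over *Aspn*-high cells at day 10 and 3.04-fold at day 14. In *Ucma*-high cells *Junb* was at 885 and 446 CPM at day 10 and day 14, and 98.2% and 93.8% of these cells were also *Cnmd*-high.

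*Atf3*, the AP-1 partner induced by stress, was the gene whose pattern by day differed most between gates. Among the *Cnmd*-high cells it was at 84.6 CPM at day 7, 336 at day 10, and 356 at day 14. Among the *Aspn*-high cells it was at 85.4, 170, and 70.5 CPM. The cartilage gate thus kept its day 10 level at day 14, while the *Aspn* gate was back near its day 7 level, which rests on 37 UMIs (95% CI, 60.1 to 118). *Col10a1*-high cells had 588 and 519 CPM, *Ifitm5*-high cells 250 and 317 CPM, and *Rgs5*-high cells 164 and 122 CPM. The highest and lowest gates were 3.59-fold apart at day 10 and 7.36-fold at day 14.

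*Egr1* was at 634, 865, and 502 CPM in *Cnmd*-high cells, at 600.0, 583, and 383 CPM in *Aspn*-high cells, and at 1065 and 946 CPM in *Col10a1*-high cells. It was lowest in *Ifitm5*-high cells, at 456 and 289 CPM. *Ier2* was at 162, 159, and 128 CPM in *Cnmd*-high cells, at 104, 122, and 108 CPM in *Aspn*-high cells, and at 269.7 and 297 CPM in *Col10a1*-high cells. Like *Egr1*, it was highest in the hypertrophic gate at both days, and it was the only one of the 10 that was higher at day 14 than at day 10 there.

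The *Nr4a* receptors were not highest in the *Col10a1* gate, and the *Ucma* gate was at the top except for *Nr4a3* at day 7 and day 14. *Nr4a1* was at 179, 392, and 129 CPM in *Ucma*-high cells over the 3 days, at 133, 324, and 101 CPM in *Cnmd*-high cells, and at 73.8, 111, and 38.6 CPM in *Aspn*-high cells. *Ifitm5*-high cells had the least, 52.5 and 28.7 CPM, which is 7.46-fold and 4.52-fold under the *Ucma* gate. The order *Ucma*, *Cnmd*, *Rgs5*, *Col10a1*, *Aspn*, *Ifitm5* was the same at day 10 and day 14. *Nr4a2* was at 191, 258, and 93.3 CPM in *Ucma*-high cells, at 164, 215, and 71.5 CPM in *Cnmd*-high cells, and at 122, 78.7, and 54.7 CPM in *Aspn*-high cells. *Nr4a3*, the least abundant of the 10, was at 15.3, 52.8, and 17.4 CPM in *Ucma*-high cells, at 20.2, 44.4, and 13.8 CPM in *Cnmd*-high cells, and at 6.92, 18.4, and 11.0 CPM in *Aspn*-high cells, the first of these from 3 UMIs. At day 14 *Nr4a3* was highest in *Rgs5*-high cells, at 32.8 CPM (95% CI, 25.8 to 41.0), from 76 UMIs.

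Between the 2 large gates that differ in lineage, every member was higher in *Cnmd*-high than in *Aspn*-high cells at both days. At day 10, 7 of the 10 were higher by 1.5-fold or more, as were 8.11% of 12254 genes with at least 100 UMIs, and 0 were lower by that fold, against 26.9% of genes. The median log2 ratio was 0.91 for the 10 genes and −0.27 for all genes. *Nr4a1* and *Nr4a3* are among the 7, and the genes were chosen because these receptors led a chondrocyte cluster of the same cells. The counts in this comparison are thus a description and no test. At day 14, 2 of the 10 were higher by that fold against a background of 7.99%, and 0 lower against 30.5%, with medians of 0.43 and −0.31. *Nr4a1* kept a log2 ratio of 1.54 at day 10 and 1.39 at day 14, *Atf3* went from 0.99 to 2.33, and *Nr4a2* from 1.45 to 0.39. With cells of more than 1 lineage left out, the day 10 ratio of *Nr4a1* was 2.38 and that of *Nr4a3* 2.01, where all cells gave 1.27. Neutrophil genes were at 44.8 CPM in *Cnmd*-high and 3.42 CPM in *Aspn*-high cells at day 10 and at 113 and 224 CPM at day 14, and their part was not tested.

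Along the cartilage gates the *Nr4a* receptors ran one way and *Atf3*, *Ier2*, *Junb*, and *Egr1* the other. For this comparison the cells were divided so that no cell counted more than once: *Ucma*-high without *Col10a1*, *Cnmd*-high without *Ucma* or *Col10a1*, *Col10a1*-high with *Cnmd* or *Ucma*, and *Col10a1*-high without either. At day 10 these held 1467, 1640, 102, and 374 cells, and at day 14 860, 1251, 121, and 995 cells. *Nr4a1* stood at 392, 267, 191, and 107 CPM in that order at day 10. At day 14 it stood at 130.1, 81.8, 68.2, and 76.7 CPM, the last 2 with overlapping counting intervals. The level of *Nr4a1* was thus lower in each group than in the one listed before it at day 10. At day 14 the step was between the *Ucma* group and the rest. The groups are listed by marker, and no order of maturation was measured. Cells also high for *Aspn* were not left out of them. At day 10, 536 *Cnmd*-high and 201 *Ucma*-high cells were *Aspn*-high, and at day 14, 377 and 109. The part of these cells in the differences between the groups was not tested.

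*Atf3* stood at 316, 341, 538, and 604 CPM in the same 4 groups at day 10 and at 371, 327, 472, and 526 CPM at day 14. *Ier2* went from 142 over 169 and 239 to 279.7 CPM at day 10 and from 114 over 129 and 218 to 309 CPM at day 14. Both were highest in the cells with *Col10a1* alone. *Junb* differed by less than 1.5-fold over the first 3 groups at day 10, at 885, 860, and 878 CPM, and 1367 CPM in the last, and at day 14 it was at 449, 417, 610.1, and 954 CPM. *Egr1* was at 879, 855, 855, and 1134 CPM at day 10 and at 486, 502, 571, and 1002 CPM at day 14. *Fos* (1944 to 1634 CPM from the first to the last group) and *Jun* (1892 to 1372 CPM) were lower at the end at day 10, and at day 14 they were at 1169 and 1279 CPM and at 1201 and 1144 CPM. The sum of the 3 receptors went from 703 to 219 CPM at day 10 and from 241 to 132 CPM at day 14.

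**Figure D2:**
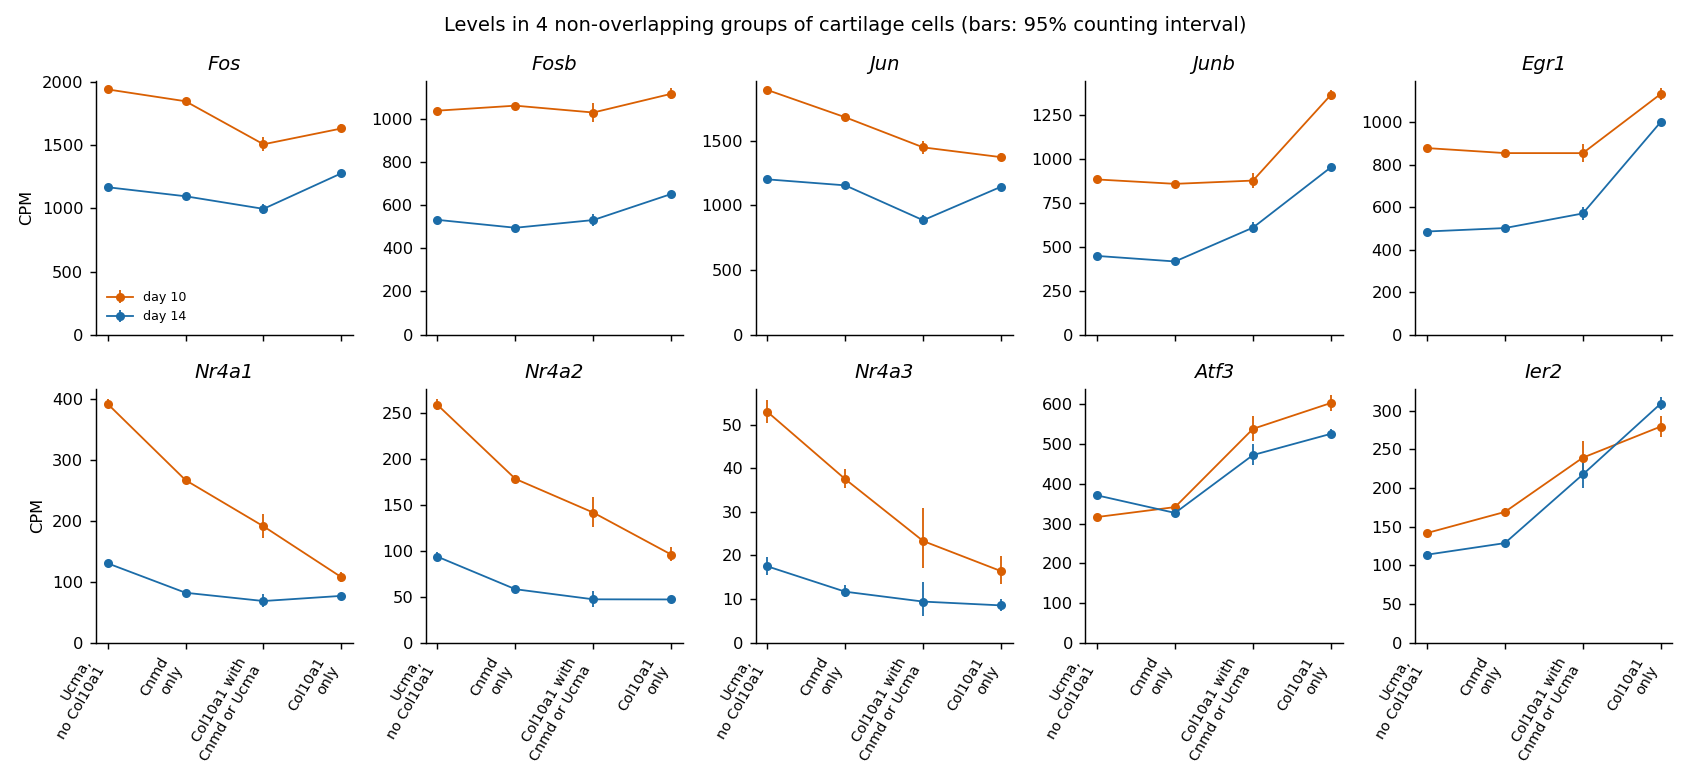
Level of each of the 10 genes in CPM across 4 cartilage groups that share no cell, at day 10 and day 14, with 95% counting intervals. From the first to the last group *Nr4a1* goes from 392 to 107 at day 10 and from 130.1 to 76.7 at day 14, while *Atf3* goes from 316 to 604 and from 371 to 526.

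Set directly against *Ucma*-high cells without *Col10a1*, all *Col10a1*-high cells had 3 members lower by 1.5-fold or more at day 10, *Nr4a1* (log2 ratio −1.61), *Nr4a3* (−1.55), and *Nr4a2* (−1.27), and 2 higher, *Ier2* (0.93) and *Atf3* (0.89). Of 10322 genes 19.5% were lower and 22.0% higher by that fold, so that counts of this size are near the background. At day 14 the 3 receptors were again lower, by log2 ratios of −0.78, −0.99, and −1.02, and *Ier2* (1.39), *Junb* (1.02), and *Egr1* (0.96) were higher, with 19.0% of 10391 genes lower and 19.7% higher. The sum of all 10 genes had a log2 ratio of −0.05 at day 10 and of 0.34 at day 14.

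From day 10 to day 14 most members were lower in each gate. In *Cnmd*-high cells 8 of the 10 were lower by 1.5-fold or more, against 3.97% of 12109 genes, and 0 were higher, against 3.22%. The median log2 ratio was −0.88 for the 10 genes and −0.03 for all genes. The 3 receptors had the largest ratios, *Nr4a1* at −1.69 (95% CI, −1.73 to −1.64), *Nr4a3* at −1.68 (−1.81 to −1.55), and *Nr4a2* at −1.59 (−1.65 to −1.53). *Fosb* (−1.03), *Junb* (−0.98), *Egr1* (−0.79), *Fos* (−0.75), and *Jun* (−0.61) followed, *Ier2* was at −0.32, and *Atf3* was at 0.08 (0.05 to 0.11). Across the planned settings the number lower by the fold was 7 or 8.

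In *Aspn*-high cells 6 of the 10 were lower by that fold against 4.52% of 12400 genes, and 0 were higher against 3.51%. *Nr4a1* (−1.53) and *Atf3* (−1.27) had the largest ratios there, followed by *Fos* (−0.77), *Nr4a3* (−0.75), *Fosb* (−0.74), and *Egr1* (−0.61), and the median of the 10 was −0.68. The count was 4 to 8 over the alternatives, and with cells of more than 1 lineage left out it was 4, with *Nr4a1* at −0.92 and *Nr4a3* at −0.11. In *Col10a1*-high cells 4 of the 10 were lower by the fold against 5.59% of 9734 genes, with a median of −0.41. *Ucma*-high cells had 8 members lower by the fold against 3.99% of 10650 genes, *Ifitm5*-high cells 6 against 4.59% of 4948 genes, and *Rgs5*-high cells 4 against 4.80% of 4357 genes, with *Nr4a1* at −1.60, −0.87, and −1.68. The 6 in *Ifitm5*-high cells include *Nr4a3* (−1.14, −2.36 to 0.12), from 11 UMIs at day 10 and 15 at day 14. With so few UMIs *Nr4a3* was not among the 4948 genes, so this count and its background are not like for like. The median percent of mitochondrial UMIs per cell moved little over the same days, from 2.29 to 2.04 in *Cnmd*-high and from 2.90 to 2.71 in *Aspn*-high cells, while neutrophil genes went from 44.8 to 113 CPM and from 3.42 to 224 CPM.

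**Figure D3:**
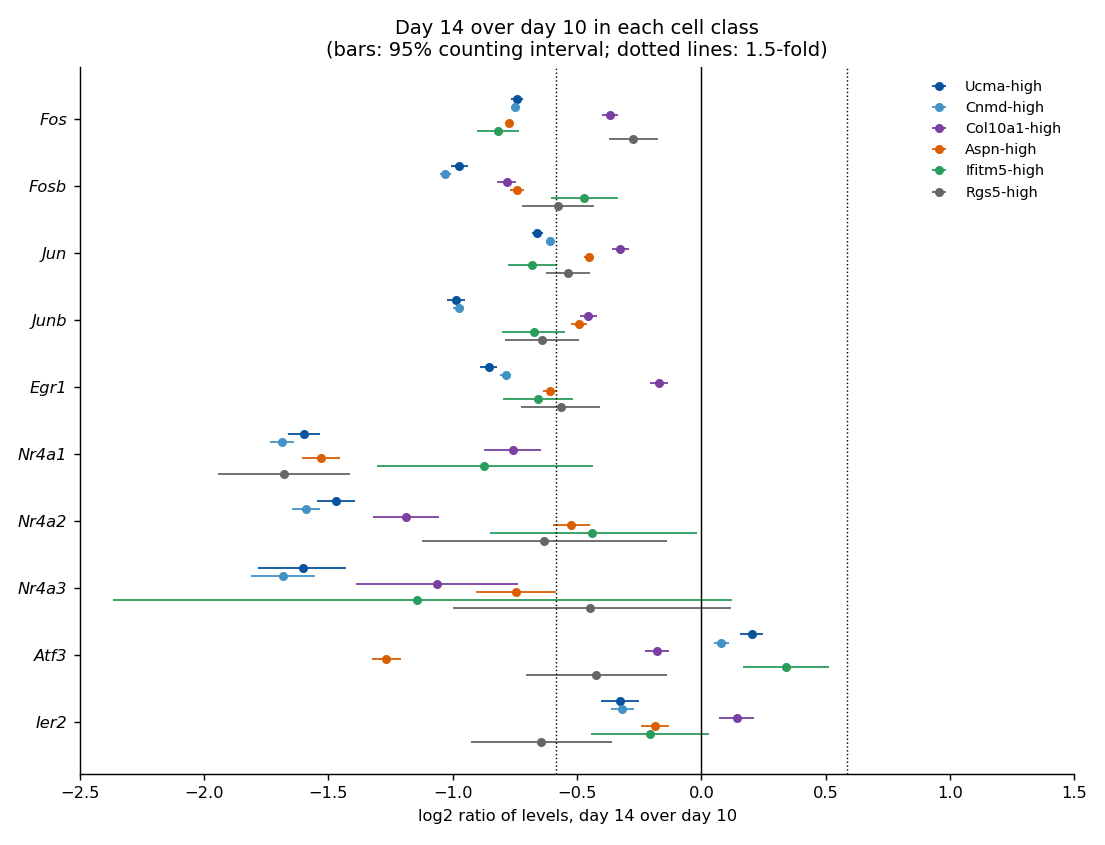
log2 ratio of the level at day 14 over day 10 for each gene and gate, with 95% counting intervals and dotted lines at 1.5-fold. Nearly all points lie left of 0, the *Nr4a* receptors of the *Ucma* and *Cnmd* gates at −1.47 to −1.69, and *Atf3* ranges from −1.27 in *Aspn*-high to 0.34 in *Ifitm5*-high cells.

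The size of the day difference was itself compared between gates, with counting intervals and no spread between animals behind it. The intervals treat the gates as separate, although 536 cells at day 10 and 377 at day 14 were high for both *Cnmd* and *Aspn*. Another 102 and 116 were high for both *Cnmd* and *Col10a1*. The differences were not computed without shared cells, and the *Aspn*-high ratio of *Nr4a3* was smaller in size with cells of 1 lineage alone, as given above. For *Atf3* the log2 ratio in *Cnmd*-high cells was 1.35 above that in *Aspn*-high cells (1.28 to 1.41). For *Nr4a2* it was 1.07 lower (difference −1.07, −1.16 to −0.97) and for *Nr4a3* 0.94 lower (−0.94, −1.14 to −0.73). *Fos* differed by 0.03 (0.00 to 0.05), so that it was lower by nearly the same size in both gates. Against *Col10a1*-high cells, the ratio in *Cnmd*-high cells was lower by 0.93 for *Nr4a1* (−0.93, −1.05 to −0.80) and by 0.62 for *Egr1* (−0.62, −0.66 to −0.57).

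Between day 7 and day 10, 6 of the 10 were higher by 1.5-fold or more in *Cnmd*-high cells at day 10, against 14.0% of 11230 genes, and 0 were lower, against 15.8%. *Atf3* had the largest log2 ratio, 1.99 (1.72 to 2.27), then *Nr4a1* (1.28), *Nr4a3* (1.13), *Junb* (1.06), *Jun* (1.04), and *Fosb* (0.64), and *Ier2* was at −0.02. The 63 cells of day 7 had a median of 3.20% mitochondrial UMIs against 2.29% and neutrophil genes at 2054 against 44.8 CPM. Without the upper limit of 5000 genes, the ratio of *Atf3* was 1.24 and the count 4 of 10, and over the alternatives the count was 4 to 9. The summed level of *Aspn*-high cells was nearly the same at the 2 days, 4481 CPM (4284 to 4685) from 25 cells and 4702 CPM.

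Single cells differed widely in the sum of the 10 genes. Among the *Cnmd*-high cells of day 10 the cell at the 5th percentile had 3.04 member UMIs per 10000, the median cell 65.3, and the cell at the 95th percentile 170. At day 14 the same points were 4.19, 35.5, and 115. The lower sum of day 14 thus came with a lower median and a lower upper end, not with a lower bottom end. At day 7 the median cell had 10.8 and the 95th percentile 146. After each cell was thinned to 2000 UMIs, 38.1% of the day 7 cells showed none of the 10 genes, against 5.61% at day 10 and 6.22% at day 14, and 20.6%, 42.9%, and 17.8% showed 6 or more of them. In *Aspn*-high cells 20.5% at day 10 and 7.52% at day 14 showed 6 or more. The members moved together from cell to cell at day 10, with 45 of 45 pairs of genes correlated above 0 in *Cnmd*-high cells (median r = 0.21 over 3173 cells of 1 library), and at day 14 with 44 of 45 (median r = 0.14 over 2172 cells).

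Other early response genes, a list of 41 that holds none of the 10, were also mostly lower at day 14 than at day 10. In *Cnmd*-high cells 23 of 41 were lower by 1.5-fold or more and 0 higher, against 3.97% and 3.22% of all genes, with a median log2 ratio of −0.75. In *Aspn*-high cells 25 were lower and 0 higher, against 4.52% and 3.51% of all genes, with a median of −0.79. *Klf2*, a factor induced by flow, was lower at day 14 in *Cnmd*-high cells (891 to 493 CPM, log2 ratio −0.85), and *Sik1*, a kinase induced by cAMP, had the largest ratio (12.7 to 2.76 CPM, −2.21). *Ccn1* (−0.31) and *Ccn2* (−0.17), matricellular genes of cartilage, were under the fold in *Cnmd*-high cells, while *Ccn2* was past it in *Aspn*-high cells (638 to 250 CPM, −1.35). There *Jund* (0.17) and *Id3* (0.36) were not lower. From day 7 to day 10, 24 of the 41 were higher and 3 lower in *Cnmd*-high cells, against 14.0% and 15.8% of all genes, with *Klf2* at a log2 ratio of 0.25, *Ccn1* at 0.55, and *Ccn2* at −0.35. Past 4-fold were *Dusp5* (3.00 to 43.6 CPM), *Cebpb* (37.5 to 196 CPM), and *Maff* (8.24 to 38.7 CPM), with *Egr3* lower (17.2 to 4.28 CPM). *Sik1* (1 UMI at day 7; log2 ratio 4.08, 1.60 to 9.39), *Fosl1* (2 UMIs; 3.15, 1.29 to 6.20), and *Dusp6* (2 UMIs; 2.76, 0.90 to 5.81) rest on few molecules, and *Dusp2* was listed at 0 UMIs at day 7 and at 6.81 CPM at day 10. Over *Aspn*-high cells, *Cnmd*-high cells had 18 of the 41 higher and 5 lower at day 10 and 16 higher and 6 lower at day 14 (all genes, 8.11% higher and 26.9% lower, then 7.99% and 30.5%), with *Klf2* at a log2 ratio of 1.28, *Ccn1* at 0.45, and *Ccn2* at 0.20 at day 10. At day 14 *Ccn2* was at 1.38, *Jund* at −0.15, and *Id3* at −0.98, and past 4-fold were *Id1* (207 against 49.0 CPM) and *Dusp2* (6.98 against 0.57 CPM).

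Heat shock genes, whose products refold proteins in stressed cells, had the opposite direction in *Cnmd*-high cells. Of 15 such genes 15 had a log2 ratio above 0 from day 10 to day 14 in *Cnmd*-high cells, with a median of 0.38. By 1.5-fold or more 4 were higher and 0 lower, against 3.22% and 3.97% of all genes. *Hspa1a*, the inducible HSP70, went from 2468 to 4586 CPM (log2 ratio 0.89) and *Hspa1b* from 2008.5 to 3176 CPM (0.66), while *Hsp90ab1* was at 2290.3 and 2517 CPM (0.14). Among the *Aspn*-high cells 1 was higher and 1 lower by that fold, against 3.51% and 4.52% of all genes, with a median of −0.16. In these cells *Hspa1a* went from 1504 to 2115 CPM (0.49), *Hspa1b* was at 0.32, and *Hsp90ab1* at −0.16. At day 7 *Hspa1a* was at 38.2 CPM in *Cnmd*-high cells, from 51 UMIs, and the log2 ratio of day 10 over day 7 was 6.01 (5.62 to 6.44). All 15 heat shock genes were higher by the fold at day 10 than at day 7, with a median log2 ratio of 1.74, against 14.0% of all genes and a median of −0.08. Beside *Hspa1a*, those past 4-fold were *Hspa1b* (5.32), the small heat shock gene *Hspb1* (4.94), *Hsph1* (3.98), *Dnajb1* (3.78), *Bag3* (2.78), and *Cryab* (2.54), and *Hsp90ab1* was at 0.86. *Cnmd*-high cells had 10 of the 15 higher than *Aspn*-high cells at day 10 and 11 at day 14, against 8.11% and 7.99% of all genes, with *Dnajb1*, a cochaperone of HSP70, at 967 against 208 CPM and 1087 against 144 CPM. *Hspa1a* had log2 ratios of 0.71 and 1.12 in that comparison, *Hspa1b* 0.70 and 1.04, and *Hsp90ab1* 0.13 and 0.43, and at day 14 *Hspb1* (2.23) and *Hsph1* (2.03) were past 4-fold as well.

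The list for cAMP and parathyroid hormone went partly with the *Nr4a* receptors. It holds parts of the pathway, such as *Pth1r*, *Pthlh*, *Creb1*, and *Ptger4*, beside genes that respond to it. *Sik1* is on this list and on that of other early response genes, so it counts in both. Of the 13 of its 15 genes tested in *Cnmd*-high cells, 8 were lower by the fold at day 14 and 0 higher (median −0.70), against 3.97% and 3.22% of all genes. *Ptgs2*, the inducible cyclooxygenase, went from 588 to 268 CPM (log2 ratio −1.13) and *Pde4b*, a cAMP phosphodiesterase, from 30.2 to 15.6 CPM (−0.96). *Pth1r*, the receptor of the hormone, was at 927 and 988 CPM (0.09). In *Aspn*-high cells 6 of 14 were lower and 0 higher (median −0.37), against 4.52% and 3.51% of all genes. There *Ptgs2* went from 346 to 90.8 CPM (−1.93), with *Pth1r* at −0.17 and *Creb1* at −0.09. *Pth1r* was higher in *Cnmd*-high than in *Aspn*-high cells, at 927 against 260.4 CPM at day 10 and 988 against 231 CPM at day 14, and *Pthlh*, the gene of the related ligand, was lower, at 0.54 against 12.4 CPM and 0.95 against 5.40 CPM. *Tnfsf11*, the gene of RANKL (log2 ratios −2.91 and −2.39), *Fgf18* (−2.32 and −2.01), and the prostaglandin receptor gene *Ptger4* (−2.52 and −3.92) were also lower at both days, and *Rgs2* at day 14 (−2.13). *Ptgs2* was higher at both days (0.77 and 1.56), *Pde4b* was at 0.38 at day 10, and *Creb1* at −0.54 at day 14. In all, 4 of 14 were higher and 6 lower in that comparison at day 10 and 2 higher and 7 lower at day 14, where 8.11% and 7.99% of all genes were higher and 26.9% and 30.5% lower. From day 7 to day 10, 5 of 11 were higher and 1 lower, against 14.0% and 15.8% of all genes, with *Pth1r* at −0.08, *Ptgs2* at 0.60, *Pde4b* at 1.09, and *Rgs2* at 2.26 (0.90 to 4.14) from 4 UMIs at day 7.

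**Figure D4:**
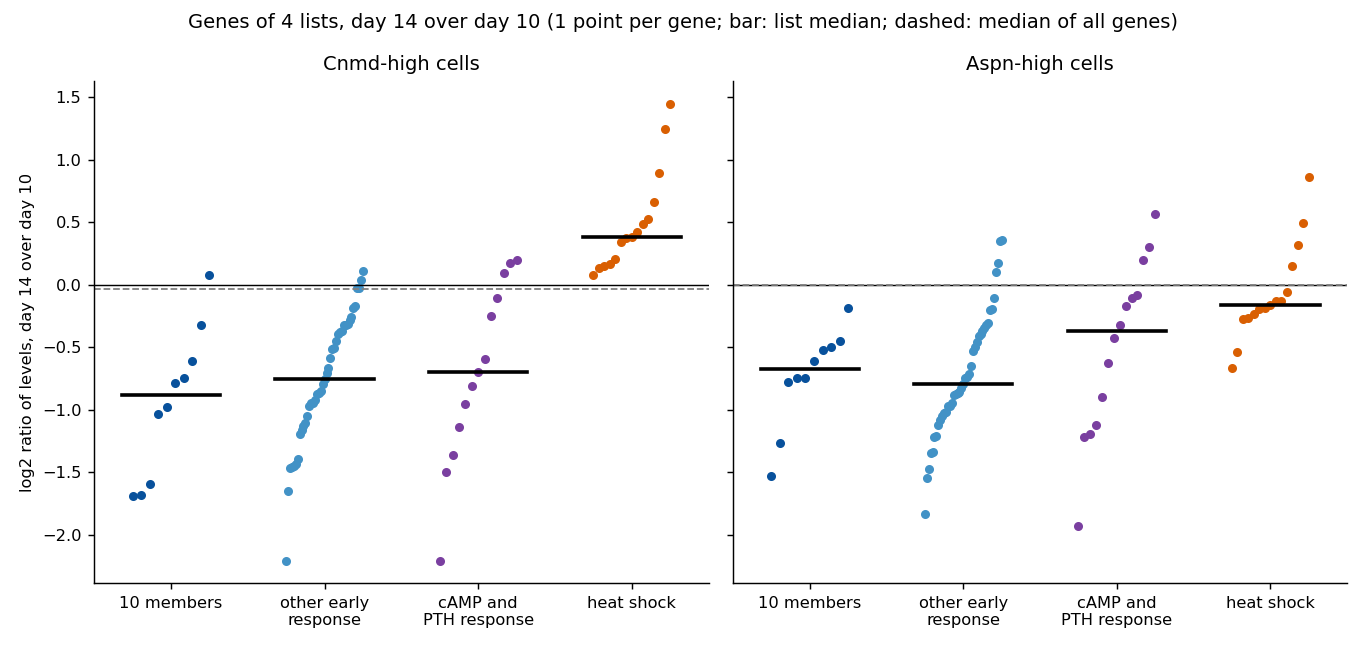
log2 ratio of day 14 over day 10 for each gene (point) of 4 lists in *Cnmd*-high and *Aspn*-high cells, with a bar at the median of a list and a dashed line at the median of all genes. *Sik1* is a point of both the other early response list and the cAMP and parathyroid hormone list. Among the *Cnmd*-high cells the medians are −0.88 for the 10 members, −0.75 for other early response genes, 0.38 for heat shock genes, and −0.70 for the cAMP and parathyroid hormone list.

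Across cells of 1 library, however, heat shock genes were the genes most like the members. The correlation was taken between a gene and the sum of the 10 genes after thinning to 2000 UMIs, over 3830 genes seen in at least 5% of *Cnmd*-high cells of both days, and it is given as a description, since the points share a library. *Hspa1b* came first (r = 0.63 at day 10 and 0.58 at day 14), then *Hspa1a* (0.62 and 0.55) and *Dnajb1* (0.53 and 0.49), and 8 of the 10 most alike were on the heat shock list. *Phlda1* (0.49 and 0.42), an early gene on none of the lists, and *Klf6* (0.36 and 0.30), an early zinc finger factor, were the other two. The rest of the 8 were *Hsph1*, *Hsp90aa1*, *Hspb1*, *Bag3*, and *Dnaja1*, all with r from 0.28 to 0.47 at both days. Among the *Aspn*-high cells *Hspa1b* (0.57 and 0.45) and *Hspa1a* (0.59 and 0.44) came first as well, followed by *Klf6*, *Hspb1*, *Hsph1*, *Phlda1*, the nuclear RNA *Malat1*, *Dnajb1*, *Dusp1*, and *Socs3*, so that 5 of the 10 were heat shock genes and 3 other early response genes. The 2 groups of genes thus varied together from cell to cell within a day, while their levels went opposite ways between day 10 and day 14 in *Cnmd*-high cells.

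The percent of UMIs from the 13 mitochondrial genes was set against the members cell by cell. When *Cnmd*-high cells were put in 4 groups of equal size by that percent, the sum of the 10 genes was 8386, 8357, 7375, and 5607 CPM from the lowest to the highest group at day 10. At day 14 it was 4834, 4780, 4270, and 3614 CPM. The group with the highest percent thus had the lowest level of the sum at both days. At day 10, 7 of the 10 genes were lower by 1.5-fold or more in the highest than in the lowest group, and 0 higher. Over the alternatives 1 to 9 were lower, with 1 for cells of 1 lineage alone and 2 for a limit of 5% mitochondrial UMIs. At day 14, 1 was lower, and over the alternatives 0 to 2 were lower and 0 to 1 higher. The 4 groups include *Cnmd*-high cells that were also *Aspn*-high. Over single cells, thinned to 2000 UMIs, Spearman's rho between the sum and the percent was −0.25 at day 10 and −0.14 at day 14, where the median over all genes that could be measured (4095 and 4033) was 0.00. Depth moved with the percent, with a median of 20534 UMIs in the lowest and 16144 in the highest group at day 10, and its part was not tested.

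In *Cnmd*-high cells of day 10 the receptors had the weakest rho, at −0.10 for *Nr4a1*, −0.03 for *Nr4a2*, and −0.06 for *Nr4a3*. The other 7 genes had −0.11 to −0.21. With *Ier2*, the receptors were also the least abundant of the 10 in these cells. The part of low counts after thinning in these rho values was not tested, so they do not rank the genes by relation to the percent. *Nr4a1* was at 336 CPM in the lowest and 209 CPM in the highest of these groups of *Cnmd*-high cells at day 10, and at 88.7 and 81.7 CPM at day 14. *Nr4a2* was at 206 and 170.0 CPM at day 10 and, the other way, at 55.2 and 76.0 CPM at day 14. *Fos* went from 2089 to 1447 CPM and from 1263 to 859 CPM, and *Atf3* from 379 to 244 CPM and from 359 to 260.2 CPM. In *Aspn*-high cells the sum went from 5789 over 5262 and 4185 to 3012 CPM at day 10, and at day 14 it was nearly flat, at 2977, 3095, 3093, and 2786 CPM. The relation was not the same in all gates, with rho for the sum at day 14 at 0.14 over 211 *Rgs5*-high cells, 0.0002 over 261 *Ifitm5*-high cells, and −0.05 over 4111 *Aspn*-high cells, where *Fosb* was at 0.07.

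**Figure D5:**
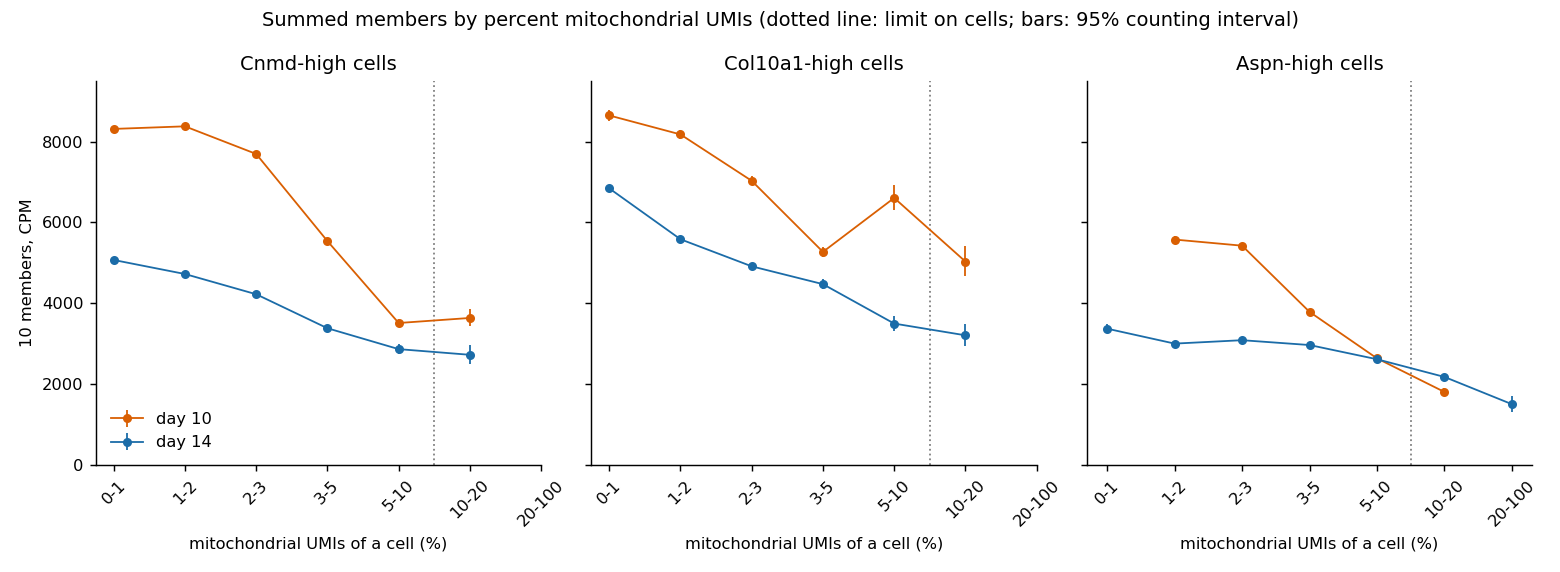
Summed level of the 10 genes in CPM in fixed bins of percent mitochondrial UMIs, with 95% counting intervals, and the 10% limit as a dotted line. In *Cnmd*-high cells the level falls from 8315 to 3511 within the limit at day 10 and from 5071 to 2864 at day 14, and the *Aspn*-high curves of the 2 days meet at 5 to 10%.

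The difference between day 10 and day 14 was also taken within bins of the same percent. Among the *Cnmd*-high cells the log2 ratio of the sum was −0.71 in cells with 0 to 1%, −0.83 in 1 to 2%, −0.87 in 2 to 3%, −0.71 in 3 to 5%, and −0.29 in 5 to 10%. *Nr4a1* was lower at day 14 in each of these bins, with ratios of −1.90, −1.64, −1.85, −1.50, and −0.44. *Atf3* had no single direction, with −0.36, 0.20, 0.01, −0.33, and 0.80. Among the *Aspn*-high cells the ratio of the sum was −0.89 in 1 to 2% and −0.81 in 2 to 3%, and it was −0.35 in 3 to 5% and −0.01 in 5 to 10%.

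The sum differed by less than 1.5-fold between cells just inside and just outside the cuts of *Ucma*, *Cnmd*, *Col10a1*, and *Aspn*. In cells within 25% above the *Cnmd* cut at day 10 the sum was 6734 CPM and within 25% below it 6238 CPM, and at day 14 the values were 4027 and 4271 CPM. For *Ucma* they were 7683 and 7519 CPM at day 10 and 3895 and 3980.0 CPM at day 14. For *Col10a1* they were 8855 and 8427 CPM, then 5543 and 4822 CPM, and for *Aspn* 5482 and 6238 CPM, then 3505 and 3426 CPM.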

How the data were processed

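Single cells of fracture callus were captured with a 10x Genomics 3′ kit (v2 per the labels, v3.1 per the study's methods). The authors deposited raw UMI counts per gene and cell, made with Cell Ranger (version 3.0 in the submitters' processing notes, 3.1.0 in the file headers) on mm10. Cells with 500 to 5000 genes, at most 10% mitochondrial and 5% hemoglobin UMIs, and no *Ptprc* UMI were kept. No doublet caller was run, and the limit of 5000 genes and cells of 1 lineage alone stood in for one.

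UMIs were summed over the cells of a gate and library and divided by their total (CPM), with exact Poisson 95% intervals. Ratios have exact binomial intervals, differences of log ratios normal-approximation intervals, and all intervals cover counting error only. A gene was called at 1.5-fold among genes with at least 100 UMIs over both groups. Python 3.11.15, numpy 2.4.6, scipy 1.17.1, pandas 2.3.3, and matplotlib 3.10.9 were used, and the procedure was tested on simulated data.

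The members, gates, and lists were chosen with earlier results of these data known. All 10 members are named, with the 3 list genes of most UMIs and any past 4-fold in the comparisons described, and the 10 genes most alike per gate are named. Alternatives were other limits on cells, marker cuts halved or doubled, 1 lineage alone, means over cells, thinning, mitochondrial UMIs left out of the total, and cells with 1% or more *S100a8* and *S100a9* UMIs left out. Ratios relative to the median gene, groups without shared cells, and fixed mitochondrial bins were added after seeing the data.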

Additional observations from a re-analysis of the deposited data

Results flagged for a closer look

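*Atf3* had opposite signs between gates from day 10 to day 14. Its log2 ratio was 0.20 in *Ucma*-high, 0.080 in *Cnmd*-high, and 0.34 in *Ifitm5*-high cells, and −0.18 in *Col10a1*-high, −1.27 in *Aspn*-high, and −0.42 in *Rgs5*-high cells. *Ier2* was at 0.14 in *Col10a1*-high cells and at −0.33 in *Ucma*-high, −0.32 in *Cnmd*-high, −0.19 in *Aspn*-high, and −0.65 in *Rgs5*-high cells. With 1 library per day, neither difference was tested against replicates.

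A signal of the 10 genes was also present in cells outside the gates. In cells with a UMI of *Ptprc* their sum was 1911 CPM at day 7 (6570 cells) and 3455 CPM at day 14 (173 cells). In *Cnmd*-high cells with 10 to 20% mitochondrial UMIs, over the limit on cells, it was 3636 CPM at day 10 and 2723 CPM at day 14.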

How the results depend on the processing

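The sum of the 10 genes had 7 log2 ratios, and each kept its sign under the 11 alternatives. They were *Cnmd*-high day 14 over day 10 (−0.77), *Aspn*-high day 14 over day 10 (−0.64), *Cnmd*-high day 10 over day 7 (0.71), *Cnmd*- over *Aspn*-high at day 10 (0.68), the same at day 14 (0.55), highest over lowest of 4 mitochondrial groups of *Cnmd*-high cells at day 10 (−0.58), and the same at day 14 (−0.42). Values that moved beyond their counting interval are given in that order. With a limit of 5% mitochondrial UMIs, without the fifth, they were −0.78, −0.67, 0.51, 0.66, −0.48, and −0.38. With marker cuts doubled, without the sixth, they were −0.74, −0.57, 1.00, 0.80, 0.63, and −0.36. With marker cuts halved, without the first, they were −0.75, 0.64, 0.53, 0.51, −0.62, and −0.45. As means over cells, they were −0.72, −0.62, 0.87, 0.58, 0.48, −0.73, and −0.45. With mitochondrial UMIs out of the total, without the first and the second and the third, they were 0.67, 0.54, −0.54, and −0.38. With no limits on cells, without the sixth, they were −0.76, −0.60, 0.39, 0.66, 0.51, and −0.38. With no upper limit on genes, they were −0.76, −0.61, 0.38, 0.65, 0.50, −0.54, and −0.40. With cells of 1 lineage alone, they were −0.76, −0.51, 0.76, 0.89, 0.65, −0.46, and −0.27. Relative to the median gene (chosen after seeing the data), without the second, they were −0.74, 0.79, 0.95, 0.86, −0.65, and −0.51. Thinned to 2000 UMIs, they were −0.71, −0.62, 0.88, 0.57, 0.49, −0.76, and −0.44. No ratio of the sum moved by over 1.5 times, and leaving out cells with 1% or more *S100a8* and *S100a9* UMIs moved none beyond its interval. Of the 700 values for single members, 694 kept their sign and 6 moved by over 1.5 times. The 6 that changed sign belonged to *Fosb* (0.09) and *Nr4a1* (−0.12) between the mitochondrial groups at day 14 and to *Ier2* from day 7 to day 10 (−0.02), which was 0.52 after thinning. Over 1.5 times moved *Atf3* from day 7 to day 10 (1.99; 1.25 with no limits on cells, 1.24 with no upper limit on genes) and, with cells of 1 lineage, the *Nr4a1* and *Nr4a3* values given above. No paired analysis was possible because each day had 1 library. Day, library, and preparation cannot be told apart, and the 63 *Cnmd*-high cells of day 7 limit every value for that day.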
